A study of Mus musculus with 11 samples.

Results

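The 8 genes Csf3r, Lifr, Vegfa, Sema7a, Pxdc1, Cacna1e, Vps37b and Tns1 had higher array signal in Zbtb46-deficient than in wild-type CD4+ dendritic cells (DC) of the mouse spleen, and they were chosen for that difference from 19933 named genes. For each gene the probe set, the group of oligonucleotides that reports 1 transcript region, was the one with the highest mean log2 intensity over all 11 arrays among those annotated with 1 gene symbol. The difference between the KO and the WT CD4+ DC array is therefore how the genes were picked; it is given below as a description and was not tested. The choice of genes did not use the 9 arrays of bone marrow progenitors. These arrays did enter the mean that picked the probe set of Tns1, the only one of the 8 genes with more than 1. The 5 further Tns1 probe sets were read on the same RNA and the same DC arrays.

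The mice were of C57Bl/6 background at steady state and differed at Zbtb46, a zinc finger transcription factor gene used as a marker of classical dendritic cells, into which gfp was inserted. KO mice were Zbtb46gfp/gfp with 2 gfp alleles, Het mice were Zbtb46 gfp/+ with 1, and WT mice were Zbtb46+/+ with 0. CD4+ DC of KO and WT mice were sorted from spleen as B220-negative cells with CD11c, MHCII, CD172, CD11b and CD4 and without CD8. Lineage-negative CD117+ progenitors of KO, Het and WT mice were sorted from bone marrow at 3 stages, Pre MegE first, then Pre CFU-E, then CFU-E, that is, precursors of megakaryocytes and red cells, early erythroid precursors, and cells that form erythroid colonies; these names were given by CD150, CD105, CD41 and CD16/32. Each genotype and cell type had 1 array, so no group had a replicate, and the number of mice behind each RNA is not stated in the labels. The insertion is present in every cell of the animal, and no group lacked Zbtb46 in DC alone.

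Several of the 8 genes belong to pathways that carry signals into or out of blood cells. Csf3r encodes the receptor for granulocyte colony-stimulating factor (G-CSF), the main growth factor of neutrophil production, and Lifr encodes the chain that binds leukaemia inhibitory factor and signals together with gp130, the product of Il6st; both receptors act through JAK kinases and STAT factors. Vegfa encodes a secreted growth factor of blood vessels that is a known target of hypoxia-inducible factors, and Sema7a encodes a lipid-anchored semaphorin that binds plexin C1 and integrins. Cacna1e encodes the pore subunit of R-type voltage-gated calcium channels, Vps37b a subunit of ESCRT-I, which sorts ubiquitinated receptors into endosomes, and Tns1 a tensin that joins integrins to actin. Pxdc1 encodes a protein with a PX domain, a lipid-binding fold, and no further role is given to it here.

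The arrays were alike in median intensity, between 195.66 and 218.37 units, but the upper quartile was 604.76 in KO DC and 641.43 in WT DC, against 967.58 to 1009.25 in the progenitors. The Zbtb46 signal was 8.02 in KO DC and 9.67 in WT DC on the log2 scale, a difference of -1.65. At CFU-E it was 7.50 in KO, 8.62 in Het and 8.87 in WT cells, and at Pre CFU-E 7.70, 8.30 and 8.14. At Pre MegE it lay below the array median in each genotype, at 7.71 in KO, 7.67 in Het and 7.52 in WT cells, so the gene does not check those labels; where its probes lie relative to the insertion was not analysed here. All 13 genes of a classical DC list were at or above the array median in both DC arrays, with a summed intensity of 85691 in KO DC and 82328 in WT DC, against 2317 to 4159 in the progenitors. The 13 genes of a CD4+ DC list were also all at or above the median, with sums of 34508 in KO DC and 34989 in WT DC; several of them encode the proteins used in the sort.

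**Figure D1:**
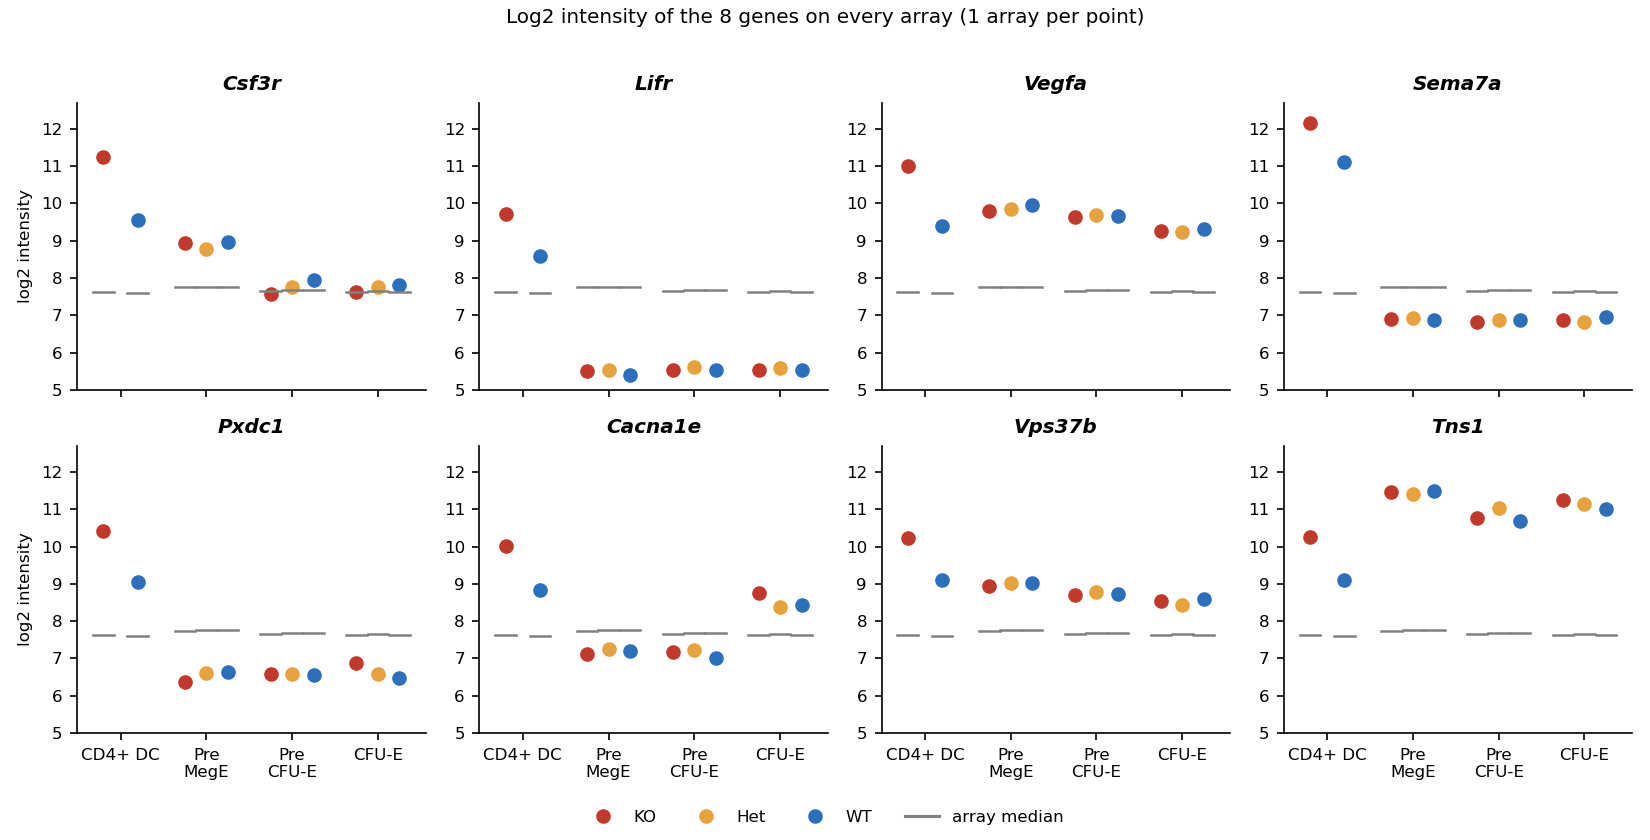
Log2 array intensity of the 8 genes on each of the 11 arrays, 1 panel per gene, with 1 point per array and KO left of Het and WT within each cell type. In all 8 panels the KO DC point lies above the WT DC point, and in the Tns1 panel both DC points, as deposited, lie below the 9 progenitor points.

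Among the receptors, Csf3r had the widest separation of the KO and WT DC arrays. On the log2 intensity scale its level was 11.24 in KO DC and 9.55 in WT DC, a difference of 1.70 or 3.24-fold. In Pre MegE cells it was 8.95 in KO, 8.77 in Het and 8.97 in WT, in Pre CFU-E cells 7.58, 7.77 and 7.94, and in CFU-E cells 7.63, 7.77 and 7.81, in the same genotype order. Both DC values thus lay above all 9 progenitor values, and among progenitors the 3 Pre MegE values stood apart from the 6 later ones. Csf3r lies on chromosome 4 at 126023441 to 126044975 (GRCm38.p6).

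Lifr separated DC from progenitors completely. Its log2 level was 9.71 in KO DC and 8.60 in WT DC, a difference of 1.12 or 2.17-fold. The 9 progenitor values ran from 5.40 to 5.61, all below the array median, and KO Pre CFU-E, WT Pre CFU-E and KO CFU-E shared 1 identical value of 5.54. The progenitor values are therefore not ranked here. Lifr lies on chromosome 15 at 7090610 to 7197489.

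Vegfa, the secreted ligand, was measured on every array. Its log2 level was 11.01 in KO DC and 9.41 in WT DC, a difference of 1.60 or 3.02-fold. In Pre MegE cells it was 9.80 in KO, 9.86 in Het and 9.96 in WT, in Pre CFU-E cells 9.63, 9.69 and 9.65, and in CFU-E cells 9.26, 9.23 and 9.31. The KO DC array lay above all progenitors, while the WT DC array lay between the Pre CFU-E and the CFU-E values. That last placement depended on the scaling: WT DC was 0.24 below the median of the progenitors as deposited (a difference of -0.24) and 0.40 above it after quantile normalization. Vegfa lies on chromosome 17 at 46016993 to 46032377.

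Sequence upstream of the transcription start is shown for these 3 genes because they encode the receptors and the ligand with the best known inducible control. The RefSeq promoter table for GRCm38.p6 held entries for 7 of the 8 genes, with 9 starts in all; Vps37b had none. Each run below is the 250 bases before a start, 5′ to 3′ on the gene's own strand, with motif matches in capitals. The Csf3r window is chr4:126024409-126024658 on the plus strand and lies inside the annotated span of the gene, the Lifr window is chr15:7129322-7129571 on the plus strand and also lies inside its gene's span, and the Vegfa window is chr17:46032378-46032627 on the minus strand, just outside the span.
Csf3r: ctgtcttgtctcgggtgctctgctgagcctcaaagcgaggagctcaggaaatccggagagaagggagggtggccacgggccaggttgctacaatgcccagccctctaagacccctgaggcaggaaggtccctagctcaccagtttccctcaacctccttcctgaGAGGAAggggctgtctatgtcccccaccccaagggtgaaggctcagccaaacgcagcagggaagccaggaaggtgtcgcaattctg
Lifr: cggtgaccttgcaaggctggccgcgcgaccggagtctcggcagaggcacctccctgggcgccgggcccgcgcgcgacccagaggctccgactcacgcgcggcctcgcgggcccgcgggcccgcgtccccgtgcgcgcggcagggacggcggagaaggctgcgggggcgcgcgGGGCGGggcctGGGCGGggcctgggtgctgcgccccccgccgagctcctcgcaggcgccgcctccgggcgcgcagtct
Vegfa: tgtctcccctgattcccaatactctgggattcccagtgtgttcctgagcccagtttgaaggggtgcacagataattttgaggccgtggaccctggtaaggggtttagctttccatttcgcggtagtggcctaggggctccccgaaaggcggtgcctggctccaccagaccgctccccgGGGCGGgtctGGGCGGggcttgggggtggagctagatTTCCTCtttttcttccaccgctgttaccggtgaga
The 6 motifs searched on both strands were ACGTG, the core of a hypoxia response element, TTCNNNGAA, a STAT site, TGANTCA, an AP-1 site, GGGCGG, a GC box bound by SP factors, GAGGAA, a PU.1-type ETS site, and TGACG, the core of a cAMP response element. The Csf3r window held 1 ETS match, which begins 86 bases before the start, and no other match. The Lifr window held 2 GC boxes, and the Vegfa window held 2 GC boxes and 1 ETS match read on the other strand, 35 bases before the start. In the windows not printed, Sema7a and Pxdc1 had 2 GC boxes each, Tns1 had 3 and Cacna1e had 1 ETS match. The other Vegfa window had 1 GC box and overlapping ACGTG and TGACG matches, and the other Lifr window had none of the 6. That Vegfa window, chr17:46025164-46025413, lies inside the annotated span of the gene, so its matches are not upstream of the whole gene. The other Lifr window and those of Sema7a and Cacna1e also lie inside the spans of their genes. No window held a STAT or AP-1 match. Of 32851 promoters in the table, 32.74% held a GC box, 23.25% an ETS match, 17.77% a TGACG match, 16.57% an ACGTG match, 7.02% a STAT match and 6.749% an AP-1 match, so none of these letter runs is rare. The GC content was 60% for Csf3r, 82.4% for Lifr and 59.2% for Vegfa, against a median of 52.4% over all promoters.

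Sema7a and Pxdc1 behaved like Lifr in the progenitors. The log2 level of Sema7a was 12.15 in KO DC and 11.10 in WT DC, a difference of 1.05 or 2.07-fold, and its 9 progenitor values ran from 6.82 to 6.96. For Pxdc1 it was 10.42 in KO DC and 9.06 in WT DC, a difference of 1.37 or 2.58-fold, and its progenitor values ran from 6.36 to 6.88. All progenitor values of both genes lay below the array median, and both DC values lay above it. Sema7a lies on chromosome 9 at 57939596 to 57962865 and Pxdc1 on chromosome 13 at 34627840 to 34652681.

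The calcium channel gene Cacna1e was the only one of the 8 with a CFU-E level well above both earlier stages. Its log2 level was 10.01 in KO DC and 8.85 in WT DC, a difference of 1.16 or 2.23-fold. In Pre MegE cells it was 7.13 in KO, 7.25 in Het and 7.20 in WT, in Pre CFU-E cells 7.18, 7.22 and 7.02, and in CFU-E cells 8.74, 8.37 and 8.43. It reached the array median in CFU-E cells alone among the progenitors, and the WT DC level exceeded the highest CFU-E value, that of KO cells, by only 0.10. Cacna1e lies on chromosome 1 at 154390806 to 154884785.

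Vps37b was measured on every array within a narrow range. Its log2 level was 10.24 in KO DC and 9.10 in WT DC, a difference of 1.14 or 2.20-fold. In Pre MegE cells it was 8.95 in KO, 9.01 in Het and 9.02 in WT, in Pre CFU-E cells 8.70, 8.79 and 8.72, and in CFU-E cells 8.54, 8.43 and 8.61. KO DC thus stood 1.22 above the highest progenitor value, and WT DC stood 0.08 above it. Vps37b lies on chromosome 5 at 124004641 to 124032260.

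Tns1 was the exception in its order of cell types. Its log2 level was 10.27 in KO DC and 9.11 in WT DC, a difference of 1.16 or 2.24-fold. In Pre MegE cells it was 11.46 in KO, 11.40 in Het and 11.49 in WT, in Pre CFU-E cells 10.76, 11.04 and 10.70, and in CFU-E cells 11.24, 11.14 and 11.005. As deposited, both DC values lay below every progenitor value, with KO DC nearer to them than WT DC. With quantile normalization KO DC was at 10.86 and exceeded 3 of the 9 progenitor values, which ran from 10.55 to 11.45, while WT DC at 9.59 stayed below all 9. Tns1 lies on chromosome 1 at 73910232 to 74124548.

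Across cell types, the KO DC level exceeded all 9 progenitor levels for every gene but Tns1. The WT DC level did so for every gene but Tns1 and Vegfa, and for Vegfa too with quantile normalization. The genes were chosen for KO DC values above the WT DC ones, which favours such an order, and the share of all genes with it was not computed. Lifr, Sema7a and Pxdc1 were below the median on every progenitor array, Cacna1e was at or above it on 3 of 9 and Csf3r on 7 of 9, and Vegfa, Vps37b and Tns1 were at or above it on all 9. DC and progenitors differ in tissue and sort as well as cell type, and with 1 array per DC genotype these separations were not tested. In sorted bulk RNA, fewer cells with a transcript and less transcript per cell cannot be told apart.

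Set against the whole DC pair, the 8 genes filled most of the upper end of the distribution, which is how they were chosen. Of 10554 genes at or above the array median in at least 1 DC array, 12 were at least 2-fold higher in KO than in WT DC (0.114%), all 8 genes among them, and 21 were at least 2-fold lower (0.199%). The median difference was -0.05 and the SD over genes 0.23 on the log2 scale. The genes took 8 of the 9 highest ranks, from Csf3r at rank 1 to Sema7a at rank 9; the other was Snord14e, a small nucleolar RNA gene, at rank 4 with a difference of 1.34. Just inside the group Sema7a had 1.05, and just outside it Il12b, which encodes the p40 chain of interleukin 12, had 1.03. With quantile normalization Sema7a had 0.98 and rank 26, so that 7 of the 8 kept a difference of at least 2-fold.

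**Figure D2:**
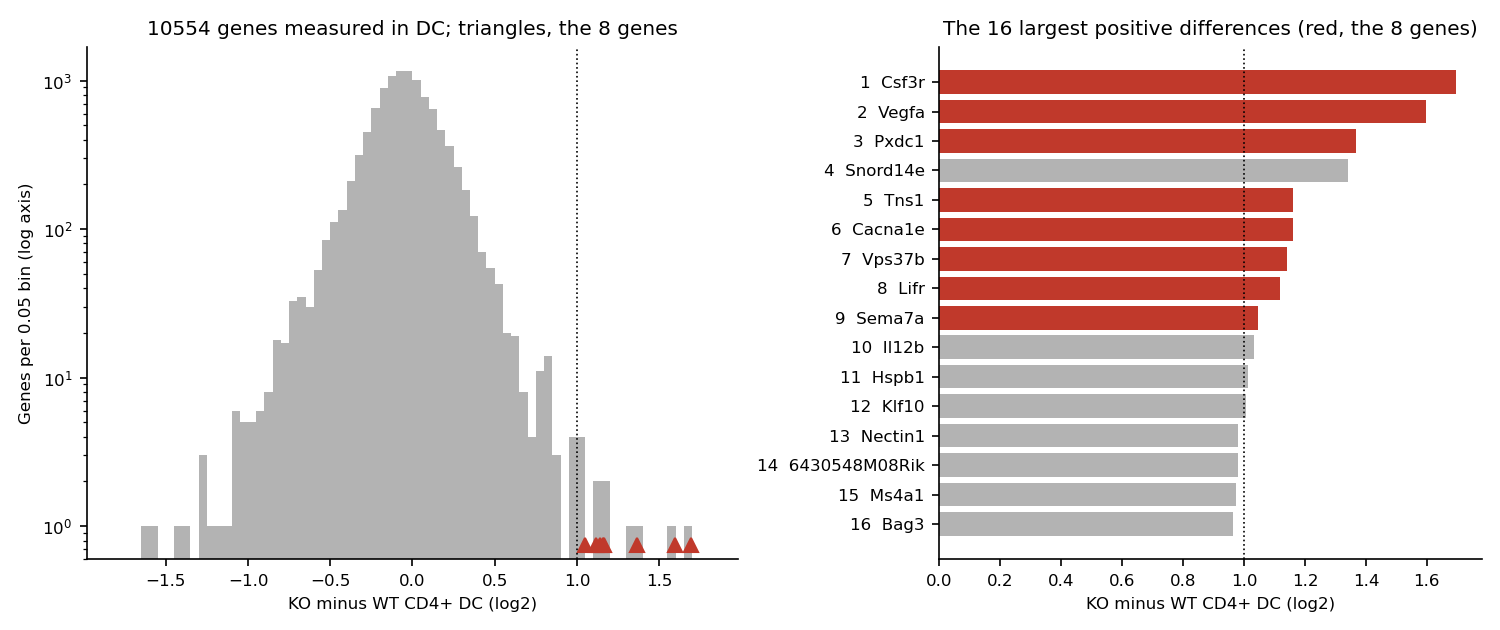
The left panel shows the distribution of the KO minus WT difference in log2 intensity over the 10554 genes measured in CD4+ DC, with triangles for the 8 genes; the right panel shows the 16 largest positive differences by rank, with the 8 genes in red. The 8 genes run from 1.05 to 1.70, and the next gene after Sema7a, Il12b, is at 1.03.

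Tns1 was the only one of the 8 with more than 1 probe set, and its 6 probe sets agreed in direction but not in size. The difference between KO and WT DC was 1.16 in the one used, and 0.80, 0.77, 0.61, 0.31 and 0.23 in the others. All 6 lay above 0 and 1 reached 2-fold; averaged over the 6, Tns1 had a difference of 0.65 and rank 55. Both DC values lay below the lowest progenitor value in 5 of 6 probe sets as deposited and in 2 of 6 with quantile normalization, a count added after the data were seen; WT DC alone lay below it in 5 of 6 under both. With quantile normalization 3 of the 6 reached 2-fold between KO and WT DC. The sixth, as deposited, had log2 levels of 9.70 in KO DC and 9.48 in WT DC, against 9.27 to 9.59 in the progenitors. In 6 of 6 the mean over genotypes was lower in Pre CFU-E cells than in both Pre MegE and CFU-E cells. The probe sets share their RNA and are not replicates.

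**Figure D3:**
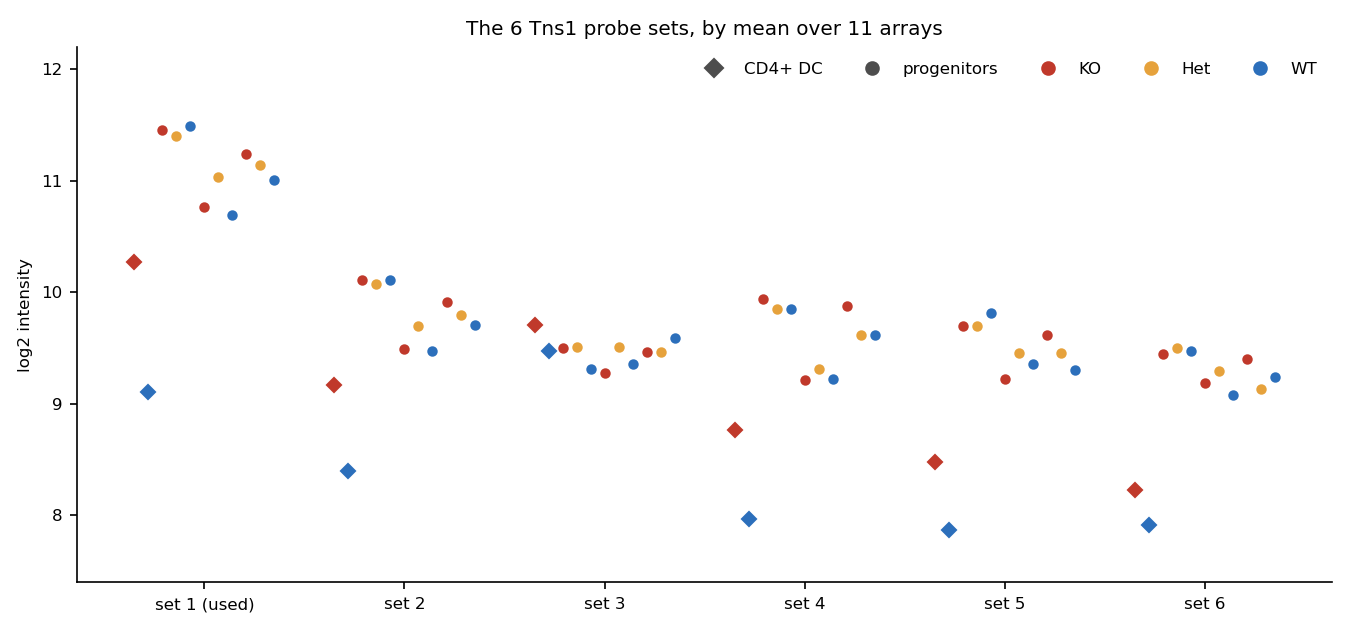
Log2 intensity of the 6 Tns1 probe sets on each array, with KO left of Het and WT within each cell type. All 6 probe sets are higher in KO than in WT DC, by 0.23 to 1.16, and as deposited 5 of 6 have both DC values below all progenitor values.

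The progenitors ask whether the same genes differed by genotype outside DC. Across the 3 stages and 8 genes there were 24 KO minus WT differences, of which 9 lay above 0, 14 below 0 and 1 at exactly 0. They ran from -0.36 for Csf3r at Pre CFU-E to 0.40 for Pxdc1 at CFU-E, whereas the smallest of the 8 DC differences was 1.05. The Pxdc1 extremes, -0.29 at Pre MegE and 0.40 at CFU-E, were both between values below the array median. No gene at all was at least 2-fold higher in KO than in WT cells at any progenitor stage, with 10251 genes measured in Pre MegE cells, 10218 in Pre CFU-E cells and 10244 in CFU-E cells.

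**Figure D4:**
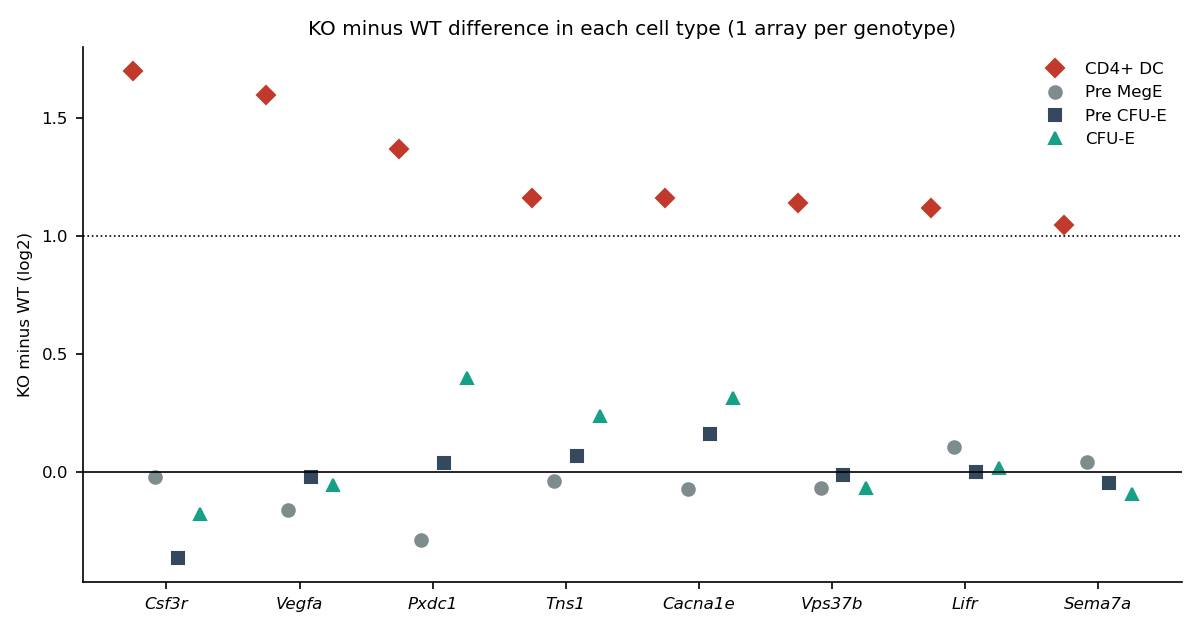
KO minus WT difference in log2 intensity for each of the 8 genes, in CD4+ DC and at the 3 progenitor stages, with 1 point per pair of arrays. The DC points lie between 1.05 and 1.70, and the 24 progenitor points lie between -0.36 and 0.40.

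The genotype was then tested with limma, with 1 coefficient per stage and per genotype over the 9 progenitor arrays, which treats the 3 stages as the replicates of a genotype and so assumes a like difference at each stage. Of the 8 genes, 5 passed the filter of being at or above the array median on at least 2 arrays; Cacna1e passed through its CFU-E arrays alone. None of the 5 passed an adjusted p of 0.05 in KO against WT, where 15 of 10701 genes did (0.140%, with 0.0187% higher and 0.121% lower); at an unadjusted p under 0.05 there was 1 of 5, Csf3r, and 614 of all genes. Csf3r averaged 8.05 in KO and 8.24 in WT progenitors, a difference of -0.19 (SE 0.0754, 95% interval -0.36 to -0.02, adjusted p = 0.834), with KO below WT at 3 of 3 stages. The signs of Vegfa and Vps37b were also negative at 3 of 3 stages, with fitted differences of -0.08 (95% interval -0.19 to 0.03, adjusted p = 0.975) and -0.05 (-0.18 to 0.08, adjusted p = 0.991). Cacna1e had 0.13 (-0.07 to 0.33, adjusted p = 0.975) and Tns1 0.09 (-0.10 to 0.28, adjusted p = 0.987), each with KO above WT at 2 of 3 stages. Each of these intervals leaves out a 2-fold difference in either direction, for the difference averaged over the stages. They do not bound the difference at a single stage. Zbtb46 itself was not called in this fit, at -0.54 (95% interval -1.05 to -0.03, adjusted p = 0.847). At CFU-E alone its difference was -1.37, outside that interval.

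Neither comparison with the heterozygotes called any of the 5 genes. For KO against Het, limma called 0 of 10701 genes (0%), with 255 at an unadjusted p under 0.05, and 0 of the 5 genes were below that unadjusted value. The KO minus Het differences of the 5 ran from -0.05 for Csf3r to 0.07 for Cacna1e. For Het against WT it called 4 genes (0.0374%, with 0.00934% higher and 0.0280% lower), again with 0 of the 5 at an unadjusted p under 0.05 and 566 of all genes, and the differences ran from -0.14 for Csf3r to 0.13 for Tns1. No genotype comparison of the 5 genes passed the adjusted threshold, which does not show that the genotypes were alike.

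Stage was tested in the same fit, for the genes that passed the filter. From Pre MegE to Pre CFU-E, 4 of the 5 fell and none rose, where limma called 66.3% of all tested genes, 37.1% higher and 29.3% lower. The largest of these was Csf3r, with means of 8.89 ± 0.11 at Pre MegE and 7.76 ± 0.18 at Pre CFU-E (SD over the 3 genotypes, 1 array each), a fall of 2.19-fold (log2 difference -1.13, SE 0.0754, adjusted p = 1.61e-06). Tns1 fell by 0.62 (adjusted p = 0.000146), Vps37b fell by 0.26 (adjusted p = 0.00318) and Vegfa fell by 0.21 (adjusted p = 0.0040). The values of the stages did not overlap for any of these, but the share of all genes without overlap was not computed. Cacna1e had a difference of -0.06 (95% interval -0.26 to 0.14, adjusted p = 0.602).

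At the step into CFU-E limma called 44.0% of all tested genes, 18.7% higher and 25.3% lower. Cacna1e averaged 7.14 ± 0.10 in Pre CFU-E cells and 8.52 ± 0.20 in CFU-E cells, a 2.60-fold difference (log2 1.38, SE 0.0883). It entered the fit only because its CFU-E values reach the array median, so its comparisons with CFU-E are given as values and not counted. Of the 4 other genes, 1 rose, 2 fell and 1 was not called. Vegfa fell by 0.39 (adjusted p = 0.0002). Tns1 rose by 0.30 (adjusted p = 0.0184), though 1 Pre CFU-E value, that of Het cells, exceeded the lowest CFU-E value. Without the KO Pre CFU-E, the WT Pre CFU-E or the KO CFU-E array its adjusted p was 0.0815, 0.103 or 0.0657. Vps37b fell by 0.21 (adjusted p = 0.0151), and this call was lost without the Het Pre CFU-E array (adjusted p = 0.0719), without the Het CFU-E array (0.0869) and with quantile normalization (0.106). Csf3r had a difference of -0.02 (95% interval -0.19 to 0.15, adjusted p = 0.821).

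Over the whole course from Pre MegE to CFU-E those 4 genes all fell, where 76.6% of all tested genes were called, 41.5% higher and 35.1% lower. Csf3r fell by 1.16 (adjusted p = 5.68e-07), Vegfa fell by 0.61 (2.75e-06), Vps37b fell by 0.47 (4.8e-05) and Tns1 fell by 0.32 (0.00625). Cacna1e had a difference of 1.32. The order of levels was thus Pre MegE above the 2 later stages, which did not differ beyond their spread, for Csf3r, and a descent at each step for Vegfa and Vps37b. For Tns1 it was Pre MegE, CFU-E, Pre CFU-E in the probe set used, and for Cacna1e CFU-E above the 2 earlier stages. Another Tns1 probe set had a higher mean at CFU-E, 9.50, than at Pre MegE, 9.44.

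**Figure D5:**
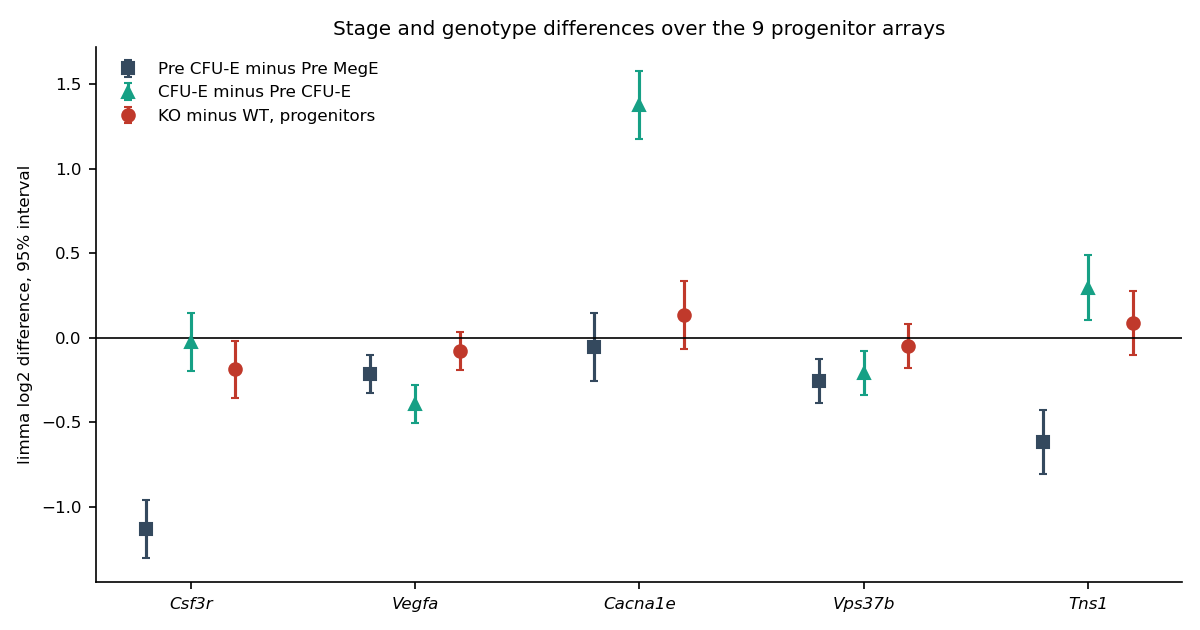
Fitted log2 differences with 95% intervals from limma over the 9 progenitor arrays for the 5 genes tested, for KO minus WT and for the steps into Pre CFU-E and into CFU-E. The genotype intervals lie near 0, between -0.36 and 0.33 for KO minus WT, and the stage differences reach -1.13 for Csf3r and 1.38 for Cacna1e.

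Markers of other blood cells were followed beside Csf3r because G-CSF receptor is a neutrophil gene. Of 14 neutrophil markers on the array, 13 were below the array median in KO DC and 12 in WT DC, and their summed intensity was 1836 in KO DC and 1985 in WT DC, against 20755 to 52561 in the progenitors. Since most of these markers were below the array median in both DC arrays, the difference between the 2 DC sums is not read here. In the progenitors 14 of 14 of these markers fell, as Csf3r did, from Pre MegE to Pre CFU-E. Their median was -0.91, where 29.3% of all tested genes were lower. Among them Cxcr2 entered the fit only through its Pre MegE values, which favours a fall. Such a fall was not particular to neutrophil markers. At the same step 10 of 10 tested megakaryocyte and platelet genes fell (median -1.73), as did 17 of 17 immediate early genes (median -1.12). Of these, Itgb3 and Egr2 also entered only through Pre MegE values. Of 13 erythroid genes 11 rose and 1 fell. At the step into CFU-E 6 of 14 neutrophil markers fell with a median of -0.13, where 25.3% of all tested genes were lower and Csf3r had -0.02. In KO against WT their median was -0.31 with 2 of 14 called, against 0.140% of all tested genes, Ly6g at -0.44 (adjusted p = 0.0289) and Elane, neutrophil elastase, at -0.43 (adjusted p = 0.0136). Their part in the Csf3r values was not tested. Of 13 monocyte and macrophage markers, 8 were lower in KO DC and 5 higher, with a median difference of -0.50 and sums of 30456 in KO DC and 29734 in WT DC; Cd14, the lipopolysaccharide co-receptor, had 0.89, and the complement gene C1qc had -0.80. Of 4 measured B cell markers, Ms4a1 had 0.97, Cd79b 0.26, Cr2 -0.18 and Blk -0.52, and the sums of the list were 3316 in KO DC and 3256 in WT DC. Of 13 measured DC maturation genes, 11 were higher and 2 lower in KO DC with a median of 0.11. Among the higher were Il12b at 1.03 and the co-stimulatory genes Cd80 at 0.43 and Cd86 at 0.41. The 2 lower were Il15ra at -0.22 and Cd40 at -0.13. The sums were 50837 in KO DC and 46279 in WT DC. For this and the other lists, the share of all measured genes above 0 was not computed. The median over all of them was -0.05. The erythroid list had 4 measured genes above 0 and 2 below, with Slc4a1, the anion exchanger of red cells, at -0.94, and sums of 2964 in KO DC and 3265 in WT DC, against 16560 to 51783 in the progenitors. For the CD8+ DC, plasmacytoid DC, T cell, NK cell and megakaryocyte lists the ratio of the KO to the WT DC sum lay between 0.918 and 1.07. The part of these markers in the DC differences was not tested.

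In the receptor family around Csf3r and Lifr, only those 2 genes reached 2-fold in the DC pair. Both were chosen for that difference, and 0.114% of all measured genes were at least 2-fold higher in KO DC. Of 8 receptors of the gp130 and G-CSF type that were at or above the median in DC, 3 were higher and 5 lower in KO DC, and none of the 6 others reached 2-fold. Il6st, the gp130 partner of Lifr, was at 11.51 in KO DC and 11.56 in WT DC. Il31ra, a chain of the interleukin 31 receptor, had -0.71, and Il12rb2, a chain of the interleukin 12 receptor, had -0.27. The genes of their ligands were mostly low: 3 of 8 passed the filter, all higher in KO DC, Il27 by 0.51, Osm, which encodes oncostatin M, by 0.36 and Clcf1 by 0.17. Csf3 and Lif, the genes of G-CSF and leukaemia inhibitory factor, were below the array median in both DC arrays. The JAK and STAT signalling list had 6 genes above 0 and 7 below, with a median of -0.01, and among 12 other myeloid growth factor receptors 10 were above 0, with a median of 0.20; Ifnar1, an interferon receptor chain, had 0.57 and Csf1r, the macrophage growth factor receptor, 0.35.

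The same receptors in progenitors were tested in the same fit. Of 7 tested, none was called in KO against WT, with a median of -0.02. From Pre MegE to Pre CFU-E, 5 fell and 1 rose, where 66.3% of all tested genes were called, 37.1% higher and 29.3% lower. Il12rb2 fell by 0.85, beside Csf3r, and Il31ra rose by 1.06. The 5 include Il6st, with a fall of 0.60. It entered the fit only because its Pre MegE values reach the array median, which favours a fall, so its fall is given as a value only. The count of 5 is thus partly fixed by the filter and is a description only. Il6st was below the array median on all Pre CFU-E and CFU-E arrays, and Lifr was below it on every progenitor array.

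Around Vegfa, 19 of 22 hypoxia response genes were measured in DC, with 11 above 0, 8 below, none at 2-fold and a median of 0.10. The highest were P4ha1, a prolyl hydroxylase of collagen, with 0.81, and Ndrg1 with 0.66; Hk2, a hexokinase of glycolysis, had 0.34. In progenitors 19 were tested and none was called in KO against WT, while 10 fell and 4 rose at the step into CFU-E, where 44.0% of all tested genes were called and Vegfa also fell. Of 10 VEGF ligand and receptor genes on the array only 3 were measured in DC. Vegfa, chosen for its difference, alone reached 2-fold, where 0.114% of all measured genes were at least 2-fold higher in KO DC.

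Around Sema7a, 7 of 20 semaphorin genes were measured in DC, 4 above 0 and 3 below, and none of the 6 others reached 2-fold; Sema4a had -0.54. Plxnc1, the plexin that binds semaphorin 7A, was at 13.15 in KO DC and 13.18 in WT DC. Among 8 measured semaphorin receptors 5 were above 0 and 3 below, with Plxnd1 at 0.33 and Plxnb2 at 0.31. Around Cacna1e, 6 of 17 calcium channel subunit genes were measured, 3 above 0 and 3 below, and Cacnb4, an auxiliary subunit, had -0.67. Around Vps37b, all 8 ESCRT-I genes were measured, 3 above 0 and 5 below, and the 7 others had a median of -0.10. Around Tns1, 14 of 19 tensin and integrin adhesion genes were measured, 6 above 0 and 8 below, with a median of -0.04 and with Tns2, a paralogue, at 0.30. In each of these 4 families the gene chosen here was the only one at 2-fold. It was chosen for that difference, and 0.114% of all measured genes were at least 2-fold higher in KO DC. The count is therefore no result about the families.

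The genes whose profile was closest to each of the 8 were found by Pearson's r, as a description, over arrays that share cell type and scale. Over all 11 arrays the closest were Ifnar1 for Csf3r (r = 0.977), Il1rn, the interleukin 1 receptor antagonist gene, for Lifr (0.998), Slc5a3 for Vegfa (0.871) and Siglech for Sema7a (0.999). They were Il12b for Pxdc1 (0.998), Sgpl1 for Cacna1e (0.971), Lrp8os2 for Vps37b (0.956) and Plscr4 for Tns1 (0.960). Most of these r rest on the gap between 2 DC and 9 progenitor arrays. Over the 9 progenitor arrays alone, which leave out DC, the closest were Klf2 for Csf3r (0.990), Acadsb for Vegfa (0.995), Ift80 for Cacna1e (0.995), Zc3h12a for Vps37b (0.992) and Plekho2 for Tns1 (0.968). The DC differences of these 5 genes were -0.11 for Klf2, -0.06 for Acadsb, -0.16 for Ift80, -0.01 for Zc3h12a and 0.14 for Plekho2. Those of the next closest were -0.00024 for Cpeb2 beside Csf3r, 0.41 for Nfkbie beside Vegfa (r = 0.994), -0.26 for Phlpp2 beside Cacna1e, -0.03 for Svil beside Vps37b and -0.28 for Dyrk1b beside Tns1. Among the 8 themselves, over the 9 progenitor arrays, Vegfa and Vps37b had r = 0.96 and Vegfa and Cacna1e r = -0.89, and these follow the stages.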

How the data were processed

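Total RNA of sorted mouse cells was read on 11 single-colour arrays after biotin labelling (Ambion/Affymetrix WT Expression Kit, per the labels' protocols). The deposited values are intensity values on a linear scale, for which the submitters' processing notes name RMA; its version and any filter are not stated there, and the scale was read from the values. Their log2 was taken here with no further scaling. Of 29674 deposited probe sets, 21780 had 1 gene symbol, 1618 several and 6276 none listed; the 19933 genes of the first kind were used. The probe set with the highest mean over 11 arrays stood for a gene, as for 996 genes with more than 1.

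Progenitors were fitted with limma 3.58.1 in R 4.3.3 (stage and genotype as terms, 9 arrays, 4 residual degrees of freedom, empirical Bayes), over 10701 genes at or above the array median on at least 2 arrays, with Benjamini-Hochberg adjustment over all of them and a threshold of 0.05. The fit was tested on simulated data. No p-value was computed for the DC pair. Arrays were grouped by their labels; each group has 1 array, and their number limits the precision. P-values measure the spread between these arrays, which may be technical, and whether stages share mice is not given. Named genes of each gene list were those with the largest differences, up to 4 per list in DC, and called genes in progenitors; closest profiles were the genes with the highest Pearson's r among those with an SD of at least 0.3, leaving out predicted and small RNA genes. Il6st, Plxnc1, Csf3 and Lif were named outside that rule as known partners, after their values were seen. The 8 genes and the lists were chosen with earlier results of these data known. Alternatives were other scalings, filters, probe set rules, designs, array weights and leaving out each array.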

Additional observations from a re-analysis of the deposited data

Results flagged for a closer look

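For 3 of the 8 genes the KO minus WT difference had one sign in CD4+ DC and the opposite sign at every progenitor stage. The share of all genes with such signs was not computed, and some of the values were close to 0. At Pre CFU-E Vegfa had -0.019 and Vps37b -0.013, smaller in size than their residual SDs of 0.046 and 0.069. Csf3r was higher in KO DC by 1.70 on the log2 scale, while its mean over the 3 progenitor stages was -0.188. Vegfa was higher in KO DC by 1.60, with a progenitor mean of -0.0779, and Vps37b by 1.14, with a progenitor mean of -0.0494. Each DC difference was used to choose the gene and rests on 1 array per genotype, so the difference between cell types was not tested. None of the 3 progenitor differences passed the adjusted threshold in limma.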

How the results depend on the processing

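With 1 array per group, the DC pair has no replicate check, and its separations from progenitors depend on the scaling as given above for Vegfa and Tns1. Genotypes were set against each other within stages by the stage term; the labels give no replicate numbers for any other block. The genes called between genotypes varied in number. For KO against WT in progenitors it was 15, and it became 7 with no filter, 1 with no stage term, 46 with array weights and 1 to 26 when each array was left out in turn. For Het against WT it was 4, and became 1 with no filter, 1 with no stage term, 21 with array weights, 1 with only the groups compared and 1 to 5 with an array left out. For KO against Het it was 0, and became 2 with array weights and 0 to 1 with an array left out. The count of the 8 genes called between CFU-E and Pre MegE, 5 with Cacna1e included, was 3 with a filter on every array, since fewer were tested. Genes at least 2-fold higher in KO DC numbered 23 with quantile normalization, against 12 as deposited.

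Signs turned for values near 0. Cacna1e from Pre MegE to Pre CFU-E was 0.0290 with each array centred on its median and ran from -0.154 to 8.04e-06 with an array left out. Csf3r from Pre CFU-E to CFU-E was 0.0126 centred and 0.0154 with quantile normalization, and ran from -0.103 to 0.0291. In KO against Het, Vps37b was 0.00235 centred and ran from -0.0821 to 0.0299, Csf3r from -0.151 to 0.0277, Tns1 from -0.119 to 0.0696 and Cacna1e from -0.0462 to 0.171 with an array left out. In Het against WT, Vps37b ran from -0.0793 to 0.0327. Vegfa in WT DC against the progenitor median was 0.399 with quantile normalization. The cause of these turns was not tested.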

Other observations

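Next below the 8 genes in the ranking of the DC pair stood 7 genes with log2 differences between 1.03 and 0.96, with no test. After Il12b came Hspb1, a small heat shock protein gene, at 9.59 in KO DC and 8.58 in WT DC, and Klf10, a zinc finger transcription factor gene, at 9.48 in KO DC and 8.48 in WT DC. Nectin1, an adhesion molecule gene, had a difference of 0.98, as did the unnamed transcript 6430548M08Rik, Ms4a1 had 0.97 and Bag3, a co-chaperone gene, had 0.96. The immediate early list had 5 genes above 0 and 12 below, with a median of -0.04, against a median of -0.05 over all genes measured in DC.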
